A study of Sus scrofa with 12 samples.

Results

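The elastic fibre and matrix crosslinking genes described here are 10 genes chosen by name, and all 10 were found among the 21153 genes of the count table. They are the microfibril genes FBN1, LTBP1, LTBP2 and MFAP5, the fibulins FBLN1, FBLN2, FBLN5 and EFEMP1, and the lysyl oxidases LOX and LOXL2. The cells were primary arterial endothelial cells (ECs) of 3 pigs, kept for 48 h under laminar flow at a low aneurysmal (2 dyne/cm2), physiological (30 dyne/cm2) or supra-high aneurysmal (80 dyne/cm2) shear stress. Of the 4 cultures of a donor, 2 were physiological controls, which form set 1 and set 2. The labels do not state which set served which condition. By the numbering of their source names, set 1 was taken as the control of 2 dyne/cm2 and set 2 as that of 80 dyne/cm2. No culture carried a transgene or received a drug, and all were grown with serum and heparin on gelatin. The sample labels name aortic cells and the methods coronary arteries. The series text gives other slides and seeding densities for the 80 dyne/cm2 cultures and set 2 than for the rest, so slide and shear stress cannot be told apart where the responses to 2 and 80 dyne/cm2 are compared. Slides also differ where the 2 sets are compared, and where a condition is compared with the set not taken as its control.

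Elastic fibres consist of an elastin core laid down on a scaffold of fibrillin microfibrils. Latent TGF-beta binding proteins attach to these microfibrils and hold TGF-beta in an inactive form, while fibulins link tropoelastin, microfibrils and the crosslinking enzymes. Lysyl oxidases then join elastin and collagen chains by oxidizing lysines, which gives the arterial wall its recoil and strength, and ECs contribute to this matrix mainly in the inner elastic lamina and the subendothelial layer.

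Total counts lay between 29606854 and 41058902 reads per library. The 8 endothelial markers matched in the table (PECAM1, CDH5, KDR, TEK, TIE1, ERG, ESAM and ROBO4) were detected in every library, and their summed level was 4950 to 5850 CPM (reads scaled to a common library total, TMM-normalized) at 2 dyne/cm2 and 7010 to 7940 CPM in set 1. It was 8270 to 8570 CPM at 80 dyne/cm2 and 6550 to 7640 CPM in set 2. At 2 dyne/cm2 KDR and TEK fell more than 2-fold. PECAM1 (mean 1980 CPM against 3220 CPM in set 1) and ESAM (413 against 610 CPM) fell by less, without overlap of the groups. In every donor 7 of the 8 markers were lower at 2 dyne/cm2, beside 3870 of all 11568 genes tested, and ROBO4 was higher. VWF and CLDN5 were not matched. Of the smooth muscle markers, ACTA2, TAGLN, MYH11, CNN1 and DES stayed at or under 0.8 CPM in all 12 libraries, although MYOCD, a muscle cofactor, rose at 2 dyne/cm2, and the 8 listed summed to 49.1 to 88.7 CPM. The 7 matched leukocyte markers summed to 11 to 32.5 CPM, with PTPRC at no more than 2 reads in any library and CD68 lower at 2 dyne/cm2.

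Of the 10 genes, 8 passed the filter of at least 1 CPM in at least 3 libraries and were tested among 11568 genes. These 8 were at or above 1 CPM in all 12 libraries, so none of them entered the test through a single group. A gene was called when it changed at least 2-fold with an adjusted p under 0.05 in edgeR's quasi-likelihood test with a donor term. At 2 vs. 30 dyne/cm2 FBLN1 rose and LTBP1 fell, which makes 2 of 8 tested genes called, against 11.2% of all genes tested (5.84% higher and 5.39% lower). At 80 vs. 30 dyne/cm2 FBLN1 fell and no other member was called, 1 of 8 against 1.18% of all genes (0.51% lower). With so few members, chosen with earlier results of these data known, these shares and those that follow describe the list only. The median size of the log2 change was 0.63 for the low and 0.52 for the supra-high condition, beside 0.28 and 0.16 over all genes tested. All 3 donors shared a direction for 7 of the 8 genes in each comparison (all genes tested, 65.7% at 2 dyne/cm2 and 49.4% at 80 dyne/cm2). The CPM of the groups did not overlap for LTBP1, LTBP2 and LOX at 2 dyne/cm2 and for no member at 80 dyne/cm2, beside 37.3% and 14.7% of all genes.

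**Figure D1:**
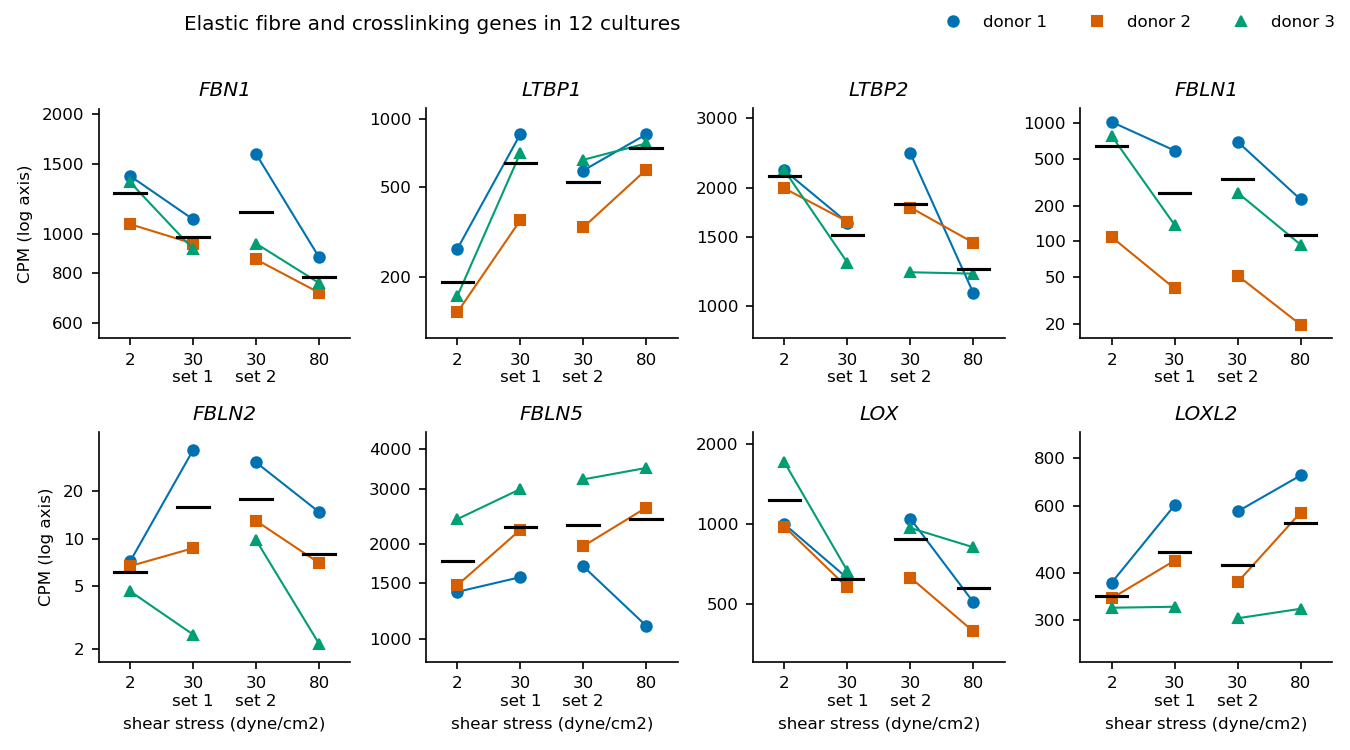
TMM-normalized CPM of the 8 tested genes in each of the 12 cultures, on log axes, by shear stress. Symbols stand for donors, lines join the 2 cultures compared within a donor, and black bars are group means: FBLN1 descends along all 6 lines and LTBP1 ascends along all 6.

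Fibrillin-1, encoded by FBN1 (ENSSSCG00000004658, chromosome 1, 123102011 to 123359649), is the main building block of microfibrils. In the order of donors 1, 2 and 3 it stood at 1400, 1060 and 1350 CPM at 2 dyne/cm2 and at 1090, 948 and 918 CPM in set 1. It stood at 876, 714 and 755 CPM at 80 dyne/cm2 and at 1590, 865 and 948 CPM in set 2. Every donor had more FBN1 at 2 dyne/cm2 than in its control and less at 80 dyne/cm2, yet the groups overlapped in both comparisons, and the culture of donor 1 in set 2 was the highest of all 12. The log2 fold changes of 0.36 (standard error 0.14, adjusted p = 0.0703, edgeR) and -0.50 (standard error 0.14, adjusted p = 0.0857) did not pass the thresholds.

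The pair of latent TGF-beta binding proteins had opposite signs in both comparisons. LTBP1 (ENSSSCG00000008510, chromosome 3, 106300748 to 106724538), which tethers latent TGF-beta to the matrix, had 265, 139 and 164 CPM at 2 dyne/cm2 against 852, 355 and 703 CPM in set 1. All 3 cultures at 2 dyne/cm2 lay below all 3 controls, and the gene fell 3.26-fold (log2 value -1.71, standard error 0.18, adjusted p = 0.000159, edgeR). Under supra-high shear stress it had 851, 594 and 776 CPM against 589, 330 and 657 CPM in set 2. Each donor was higher at 80 dyne/cm2, but the groups overlapped, and the fitted log2 value of 0.54 (standard error 0.17, adjusted p = 0.116) was not called. The call at 2 dyne/cm2 was made in all 25 alternative settings, in which the log2 fold change lay between -1.87 and -1.46.

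LTBP2 (ENSSSCG00000002368, chromosome 7, 97744974 to 97852848) binds microfibrils but, unlike LTBP1, does not bind latent TGF-beta. It had 2210, 1990 and 2210 CPM at 2 dyne/cm2 and 1630, 1640 and 1290 CPM in set 1. The groups did not overlap, although the fitted log2 value of 0.51 (standard error 0.20, adjusted p = 0.0701, edgeR) missed the thresholds. The levels at 80 dyne/cm2 were 1080, 1450 and 1210 CPM against 2440, 1780 and 1220 CPM in set 2. The within-donor differences of -1.17, -0.29 and -0.01 in log2 CPM show that donor 1 contributed most and donor 3 almost nothing to the fitted value of -0.51 (standard error 0.20, adjusted p = 0.174).

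MFAP5 (ENSSSCG00000031712, chromosome 5, 62742520 to 62757522) encodes a small microfibril-associated glycoprotein. It had 0 reads in 11 libraries and 1 read in the other, the set 2 culture of donor 2. A count of 0 allows a level of up to 0.0737 to 0.101 CPM depending on the library, for counting error only, so MFAP5 was not detectable at this depth beyond that single read and was not tested.

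Among the fibulins, FBLN1 (ENSSSCG00000000010, chromosome 5, 3839498 to 3927178) was the one gene called in both comparisons, with opposite signs. Fibulin-1 is a glycoprotein of elastic fibres and basement membranes that also binds fibronectin. It had 1030, 109 and 784 CPM at 2 dyne/cm2 and 589, 39.9 and 138 CPM in set 1. Donor 2 was far below the other donors in every condition, so the groups overlapped, while each donor was higher at 2 dyne/cm2, by 0.81, 1.45 and 2.51 in log2 CPM. The gene rose 3.03-fold (log2 fold change 1.60, standard error 0.25, adjusted p = 0.00105, edgeR). In the 80 dyne/cm2 cultures it had 227, 19.7 and 94 CPM against 701, 51.4 and 259 CPM in set 2. The 3 donors were lower by 1.62, 1.38 and 1.46 in log2 CPM, a narrow spread beside their difference in level, and the gene fell 2.82-fold (log2 fold change -1.49, standard error 0.24, adjusted p = 0.0205).

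Both calls of FBLN1 rest on the comparison within donors. Without the replicate block the log2 fold changes were 1.33 and -1.57 with adjusted p = 0.497 and 0.732 (edgeR, 12 libraries), since 70.7% of the variance of its log2 CPM lay between donors and 27.3% between conditions. At supra-high shear stress the call was also lost when any culture of set 2 was left out (adjusted p = 0.0964, 0.103 and 0.0673 for donors 1, 2 and 3). Leaving out the 80 dyne/cm2 culture of donor 2 or 3 gave 0.0976 or 0.0688, and leaving out all cultures of donor 1 or 2 gave 0.0871 or 0.214. The direction was the same in all of these fits, and the call at 2 dyne/cm2 held when any 1 library was left out, with log2 fold changes of 1.27 to 1.88.

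FBLN2 (ENSSSCG00000011609, chromosome 13, 70757255 to 70830430), a fibulin of vessel walls and basement membranes, differed in direction between donors. It had 7.2, 6.73 and 4.66 CPM at 2 dyne/cm2 against 36.5, 8.73 and 2.48 CPM in set 1, that is, lower in donors 1 and 2 and higher in donor 3. The fit gave -0.74 on the log2 scale (standard error 0.49, adjusted p = 0.249, edgeR) and 0.21 when donor 1 was left out. Under supra-high shear stress the levels were 14.8, 7.04 and 2.17 CPM against 30.5, 13 and 9.83 CPM in set 2, lower in each donor. The fitted log2 value of -1.33 (standard error 0.47, adjusted p = 0.138) was not called, whereas the fit with the replicate block on only the 6 libraries compared gave -1.29 (adjusted p = 0.0181) and DESeq2 gave -1.35 (adjusted p = 0.0292).

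FBLN5 (ENSSSCG00000002444, chromosome 7, 113423629 to 113526412) encodes a fibulin that binds elastin and integrins and is needed for elastic fibre assembly. It had 1410, 1480 and 2400 CPM at 2 dyne/cm2 and 1570, 2220 and 2990 CPM in set 1. In the 80 dyne/cm2 cultures it had 1100, 2610 and 3490 CPM against 1700, 1970 and 3210 CPM in set 2. All donors were lower at 2 dyne/cm2 and they disagreed at 80 dyne/cm2, and neither the low-shear value of -0.34 (log2, standard error 0.20, adjusted p = 0.191, edgeR) nor the supra-high one of 0.00 (standard error 0.20, adjusted p = 0.996) passed. The donor held 75.6% of the variance of FBLN5 and the condition 9.18%, the smallest share of the 8 genes. Over all genes tested the median shares were 31% and 41.8%.

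EFEMP1 (ENSSSCG00000008397, chromosome 3, 85407677 to 85473251), which encodes fibulin-3, did not pass the filter. It had 2, 15 and 195 reads at 2 dyne/cm2, 2, 9 and 6 reads in set 1, 3, 3 and 11 reads in set 2 and 0, 3 and 5 reads at 80 dyne/cm2. Only the culture of donor 3 at 2 dyne/cm2 stood out, at 6.54 CPM, and the other 11 libraries were under 1 CPM. Fitted without a filter, the low-shear log2 change was 3.02 (standard error 0.84, adjusted p = 0.0209, edgeR), and it was 1.00 (standard error 0.74, adjusted p = 0.447) without replicate 3 at 2 dyne/cm2, a setting chosen after seeing the data.

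LOX (ENSSSCG00000014232, chromosome 2, 125595115 to 125607026) encodes lysyl oxidase, the copper enzyme that starts the crosslinking of elastin and collagen. It had 1000, 979 and 1710 CPM at 2 dyne/cm2 and 626, 578 and 667 CPM in set 1. The groups did not overlap, and the 1.90-fold higher level (log2 fold change 0.93, standard error 0.19, adjusted p = 0.00419, edgeR) met the threshold on p but not that of 2-fold. It met both when the 2 dyne/cm2 culture of donor 1 (1.08, adjusted p = 0.00429), the set 1 culture of donor 2 (1.09, adjusted p = 0.00531), all of donor 1 (1.05, adjusted p = 0.0124) or all of donor 2 (1.03, adjusted p = 0.0242) was left out. It met neither without the replicate block (adjusted p = 0.0535 with 12 and 0.052 with 6 libraries) nor against set 2, where the value was 0.46 (adjusted p = 0.099). The levels at 80 dyne/cm2 were 509, 395 and 819 CPM against 1050, 630 and 968 CPM in set 2. Each donor was lower, by 1.04, 0.67 and 0.24 in log2 CPM, but the groups overlapped and the fitted value of -0.66 (standard error 0.19, adjusted p = 0.0852) was not called.

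LOXL2 (ENSSSCG00000033608, chromosome 14, 7435861 to 7540699), a relative of LOX that crosslinks collagen IV among other substrates, had signs opposite to those of LOX in both comparisons. It had 377, 343 and 324 CPM at 2 dyne/cm2 against 602, 431 and 326 CPM in set 1, and 721, 576 and 322 CPM at 80 dyne/cm2 against 580, 378 and 304 CPM in set 2. Donor 3 had nearly the same level in all 4 cultures, and the groups overlapped. The log2 fold changes of -0.32 (standard error 0.16, adjusted p = 0.14, edgeR) and 0.35 (standard error 0.16, adjusted p = 0.228) were not called.

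**Figure D2:**
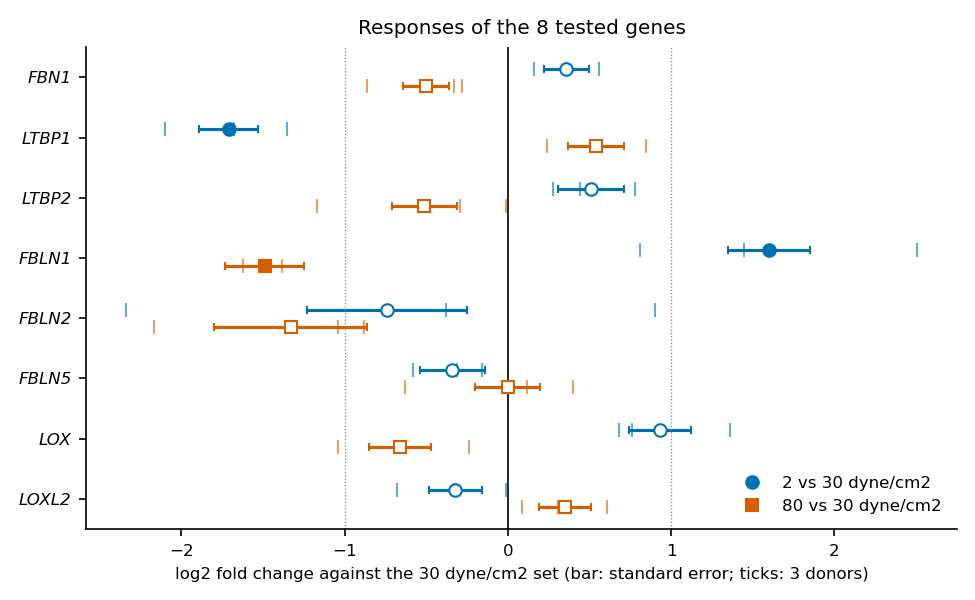
Fitted log2 fold changes of the 8 tested genes at 2 vs. 30 dyne/cm2 (circles) and 80 vs. 30 dyne/cm2 (squares), with standard errors as bars, the 3 within-donor differences as ticks and filled symbols for called genes. Dotted lines mark a 2-fold change; 6 genes lie on opposite sides of 0 in the 2 comparisons, and FBLN1 is the one filled in both.

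The responses to low and supra-high shear stress were then compared with each other, without any shared control library. Any difference between the 2 control sets therefore enters this comparison. FBN1, FBLN1, LTBP1, LTBP2, LOX and LOXL2 had opposite signs at 2 and 80 dyne/cm2 in each of the 3 donors, 6 of 8 tested genes beside 26.9% of all genes tested. In donor 3 some of these signs rest on almost no change. There LOXL2 differed by -0.01 at 2 and 0.09 at 80 dyne/cm2 in log2 CPM, and LTBP2 by -0.01 at 80 dyne/cm2. In the test of the difference itself (adjusted p under 0.05, edgeR), the same 6 genes passed, against 37.1% of all genes. The difference was largest for FBLN1 (3.09 on the log2 scale, standard error 0.35, adjusted p = 0.000259) and LTBP1 (-2.24, standard error 0.25, adjusted p = 0.00025). It was 1.59 for LOX (standard error 0.26, adjusted p = 0.00177), 1.02 for LTBP2 (standard error 0.28, adjusted p = 0.0205) and 0.86 for FBN1 (standard error 0.20, adjusted p = 0.00922). LOXL2 passed narrowly (-0.66, standard error 0.23, adjusted p = 0.0448), and FBLN2 and FBLN5 did not (adjusted p = 0.528 and 0.367). Of 20 alternative settings FBLN5 missed the threshold in 19, and its lowest adjusted p over all 20 was 0.0213. Without the replicate block LTBP1 and LOX alone passed. LTBP2 missed the threshold when the 2 dyne/cm2 culture of donor 3 (adjusted p = 0.0645), the set 1 culture of donor 1 or 3 (0.0505 and 0.052), or all of donor 1, 2 or 3 (0.112, 0.0628 and 0.0588) was left out. LOXL2 missed it when any 1 library was left out other than that of donor 3 at 2 or at 80 dyne/cm2, with the adjusted p at 0.0562 to 0.114.

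Within a library, the ratio of 2 read counts does not depend on depth or normalization, and its change shows that the genes changed unequally. The pairs were chosen after their values were seen and are a description with no test. The ratio of LTBP2 to LTBP1 reads was 8.32, 14.4 and 13.5 in donors 1, 2 and 3 at 2 dyne/cm2 and 1.91, 4.64 and 1.83 in set 1. It was 4.14, 5.39 and 1.85 in set 2 and 1.27, 2.44 and 1.55 at 80 dyne/cm2. The ratio was thus highest at 2 dyne/cm2 in every donor, without overlap, and lowest at 80 dyne/cm2. The ratio of LOX to LOXL2 reads was 2.65, 2.85 and 5.28 at 2 dyne/cm2 and 1.04, 1.34 and 2.05 in set 1, which is 2.13 to 2.58 times higher within donors. In set 2 it was 1.80, 1.67 and 3.19 and at 80 dyne/cm2 0.706, 0.686 and 2.54, so that LOXL2 had more reads than LOX at 80 dyne/cm2 in donors 1 and 2 but not in donor 3.

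**Figure D3:**
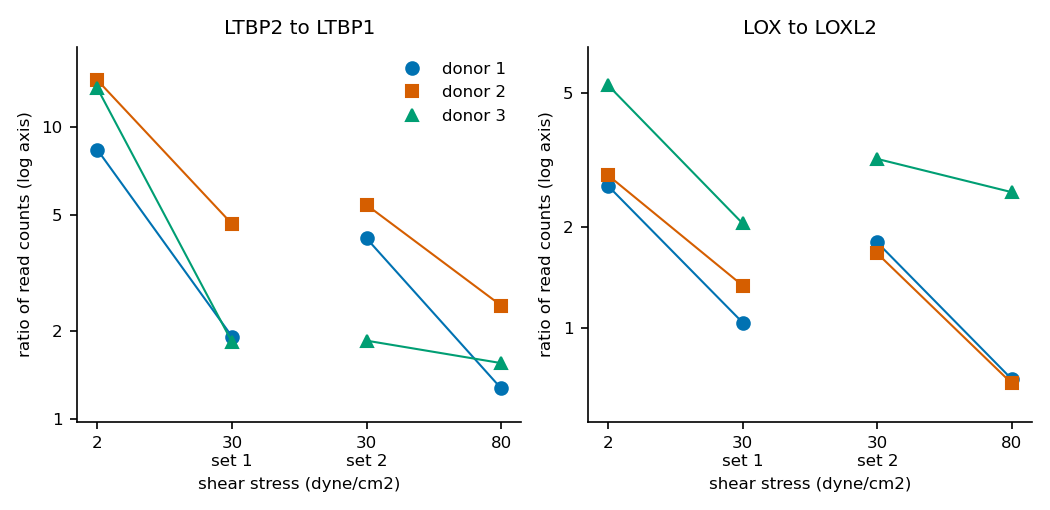
Ratios of read counts of LTBP2 to LTBP1 and of LOX to LOXL2 within each library, on log axes, by shear stress, with lines joining the cultures compared within a donor. Both ratios descend along all 6 lines, with the smallest steps from set 2 to 80 dyne/cm2 in donor 3.

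The 2 sets at 30 dyne/cm2 differed in no member by the thresholds (0 of 8, and 0% of all genes, edgeR with a donor term). DESeq2 called 47 genes and no member. An unadjusted p under 0.05 was found for 1605 genes, LOX alone among the members. LOX was higher in set 2 by 0.47 on the log2 scale (standard error 0.19, adjusted p = 0.312, edgeR). FBLN1 had the same difference of 0.47 with a wider standard error of 0.24. With set 1 as its control, FBLN1 at 80 dyne/cm2 stood at -1.02 (log2, adjusted p = 0.0825, edgeR) instead of -1.49. With the sets exchanged, members whose responses differed kept their signs at 2 and 80 dyne/cm2, but all log2 values were smaller. They were 1.12 and -1.02 for FBLN1, -1.46 and 0.29 for LTBP1, and 0.46 and -0.19 for LOX. LTBP2 had 0.28 and -0.27, FBN1 0.20 and -0.34, and LOXL2 -0.21 and 0.23. The difference of the responses was not tested with the sets exchanged.

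After removal of each donor's mean, the log2 CPM of FBN1, FBLN1, LTBP2 and LOX ran together over the 12 libraries, with Pearson's r of 0.85 to 0.94 between them. LTBP1 ran against all 4 (r from -0.90 to -0.79). LOXL2 correlated with LTBP1 at 0.66, FBLN2 with no other member beyond 0.24, and FBLN5 at 0.62 with LTBP1. These values are descriptions over libraries that share 3 donors and 4 conditions. Among 7670 other genes with a symbol and at least 10 CPM on average, the closest profile to LTBP1 was that of FMNL3 (r = 0.992), a formin that assembles actin filaments. The closest to LTBP2 was BGN (r = 0.975), the matrix proteoglycan biglycan, and the closest to FBN1, FBLN1 and LOX were FBXW8 (0.98), TRMT9B (0.981) and CUL7 (0.983). FBXW8 and CUL7 encode subunits of one ubiquitin ligase. For FBLN2, FBLN5 and LOXL2 they were CNTN3 (0.879), CYB5R1 (0.928) and PPARD (0.93). Each is the highest of 7670 values, and no test was made.

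The summed level of markers of fibroblasts, cells that make elastic fibres in the vessel wall, differed between conditions through COL3A1 above all. The 7 of 8 listed markers that were matched summed to 1200, 364 and 901 CPM at 2 dyne/cm2 in donors 1, 2 and 3, against 232, 161 and 196 CPM in set 1. The sums were 65, 45.6 and 63.8 CPM at 80 dyne/cm2 against 516, 125 and 125 CPM in set 2. COL3A1 made up 75.1% to 98.5% of the sum, and the other 6 markers came to 13.6 to 71.2 CPM at 2 dyne/cm2, 4.22 to 20.3 CPM in set 1, 3.34 to 18.1 CPM in set 2 and 3.01 to 11.4 CPM at 80 dyne/cm2, with overlap. LUM and TCF21 had their highest mean in set 1. Of the 5 tested markers, PDGFRA, PDGFRB, COL1A1 and COL3A1 rose at 2 dyne/cm2, beside 5.84% of all genes tested. Over the 12 libraries PDGFRA had 0.496 to 4.89 CPM, PDGFRB 0.209 to 7.11 CPM and COL1A1 0.646 to 49.3 CPM. The rise of COL1A1 was largest in donor 1 (log2 differences of 2.42, 0.72 and 0.71). PDGFRA and COL3A1 fell at 80 dyne/cm2, beside 0.51% of all genes tested. Decorin (DCN) was not tested and stayed at or under 4.55 CPM. It averaged 2.25 CPM at 2 dyne/cm2 and 0.366 CPM in set 1, higher in each donor and without overlap. The donors disagreed on DCN at 80 dyne/cm2 (log2 differences of -1.64, 1.3 and -0.16). TCF21 stayed at or under 0.325 CPM. The part of the fibroblast markers in the results for FBLN1 and LOX was not tested. In bulk RNA fewer cells of a type and less RNA per cell cannot be told apart.

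Of 50 other genes of the pathway, listed by role with earlier results of these data known, 37 were tested. Their shares below therefore describe the lists only. At 2 dyne/cm2 7 rose and 4 fell (29.7% called, beside 11.2% of all genes), and at 80 dyne/cm2 1 rose and 1 fell (5.41%, beside 1.18%). Without the replicate block 6 were called at 2 dyne/cm2 and 0 at 80 dyne/cm2, and the latter number was also 0 without the set 2 culture of donor 2 or 3, the 80 dyne/cm2 culture of donor 1 or 2, or all of donor 1 or 2. The gene of elastin itself, ELN, had 0.0772, 0.325 and 2.58 CPM at 2 dyne/cm2 against 11.4, 2.44 and 6.74 CPM in set 1. It was lower in each donor, although the groups overlapped, and it fell (log2 value -2.76, standard error 0.88, adjusted p = 0.0328, edgeR). Against set 2 the log2 value was -4.08. The donors differed widely, by -6.96, -2.86 and -1.38 in log2 CPM, and the 2 dyne/cm2 culture of donor 1 had only 3 ELN reads. Supra-high shear stress left ELN at 6.74, 7.72 and 7.78 CPM against 33.3, 7.44 and 10.5 CPM, which was not called (-0.94, adjusted p = 0.46).

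In the network of elastic fibre genes, 3 of 11 tested genes rose and 2 fell at 2 dyne/cm2, beside 5.84% and 5.39% of all genes tested. EFEMP2, the fibulin-4 gene required for elastic fibre assembly, rose 2.24-fold (adjusted p = 0.00208, edgeR), and LTBP3, a partner of latent TGF-beta, rose 2.31-fold (adjusted p = 0.00153). Against set 2, LTBP3 was short of 2-fold (1.96-fold, adjusted p = 0.00639). HMCN1, a large fibulin-related matrix protein, rose 4.33-fold at 2 dyne/cm2 (adjusted p = 6.36e-05) and fell 2.10-fold at 80 dyne/cm2 (adjusted p = 0.0236), as FBLN1 did. EMILIN2, a glycoprotein of the elastin interface family, fell from 113, 39.3 and 225 CPM to 4.06, 1.63 and 2.15 CPM at 2 dyne/cm2 (log2 fold change -5.34, standard error 0.45, adjusted p = 5.59e-05). Its value at 80 dyne/cm2 was 1.44 (adjusted p = 0.0596). LTBP4 stood at -0.07 and -0.37 (log2) and was not called, and FBN2 had at most 9 reads in any library.

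Among 8 tested crosslinking genes, 2 rose and 1 fell at 2 dyne/cm2, beside 5.84% and 5.39% of all genes tested. LOXL1, the lysyl oxidase tied most closely to elastin, stood at 45, 51 and 55.1 CPM against 10.2, 17.6 and 8.02 CPM in set 1 and rose 4.44-fold (adjusted p = 0.000149, edgeR). LOXL4 rose 2.06-fold (adjusted p = 0.00179), and LOXL3 was not called (0.21 on the log2 scale, adjusted p = 0.472). In the other comparison LOXL1 and LOXL4 had log2 fold changes of -0.65 each (adjusted p = 0.13 and 0.0782) and LOXL3 one of 0.52 (adjusted p = 0.197). TGM2, the tissue transglutaminase that joins glutamine to lysine residues, took the opposite course, falling 10.2-fold at 2 dyne/cm2 (adjusted p = 5.89e-05) and rising 2.48-fold at 80 dyne/cm2 (adjusted p = 0.0351). TGM2 was 2.10-fold lower in set 2 than in set 1 (adjusted p = 0.192), and with the sets exchanged it fell 4.84-fold at 2 dyne/cm2 (adjusted p = 0.000465) and was not called at 80 dyne/cm2 (log2 value 0.24, adjusted p = 0.618). LOXL4 was short of 2-fold against set 2 (1.86-fold, adjusted p = 0.00528).

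Of 6 tested genes that serve the maturation of LOX, TLL2, a protease of the BMP1 family, fell 3.59-fold at 2 dyne/cm2 (adjusted p = 0.000761, edgeR) and no other was called. All 6 had log2 fold changes below 0 there, with a median of -0.51, and 5 of them passed on the adjusted p alone, beside 5801 and 4586 of all 11568 genes tested. At 80 dyne/cm2 3 passed on the adjusted p alone, beside 380 of all genes tested. BMP1 was 1.86-fold (adjusted p = 0.012, edgeR) and FURIN 1.38-fold higher (0.0497), and TLL1 was 1.70-fold lower (0.0365). With set 1 as control, BMP1 alone of them passed (adjusted p = 0.0383). Of the 8 tested genes around latent TGF-beta, THBS1 (thrombospondin-1, which can activate the latent complex) rose 2.97-fold and ITGB5 (an integrin subunit) rose 2.18-fold at 2 dyne/cm2 (adjusted p = 0.00314 and 0.000179), and none was called at 80 dyne/cm2. TGFB1, a ligand that LTBP1 holds, stood 1.62-fold lower at 2 dyne/cm2 (adjusted p = 0.000361), short of 2-fold, with all 3 cultures below all 3 controls. The sets at 30 dyne/cm2 did not overlap for TGFB1 either, and against set 2 it stood 1.22-fold lower (adjusted p = 0.0377). Of the 4 tested genes of elastin breakdown (MMP2, CTSL, CTSS and the inhibitor CST3) none was called in either comparison, and the elastases MMP7, MMP9, MMP12 and ELANE had 6 reads or fewer in every library. On the adjusted p alone (edgeR), CTSS passed at 2 dyne/cm2 (1.46-fold higher, 0.0497) and at 80 dyne/cm2 (1.90-fold lower, 0.04). CST3 passed at 2 dyne/cm2 (1.48-fold lower, 0.00737), without overlap of the groups. With the sets exchanged CTSS passed in neither comparison (0.182 and 0.0949), and CST3 still passed (0.00642).

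**Figure D4:**
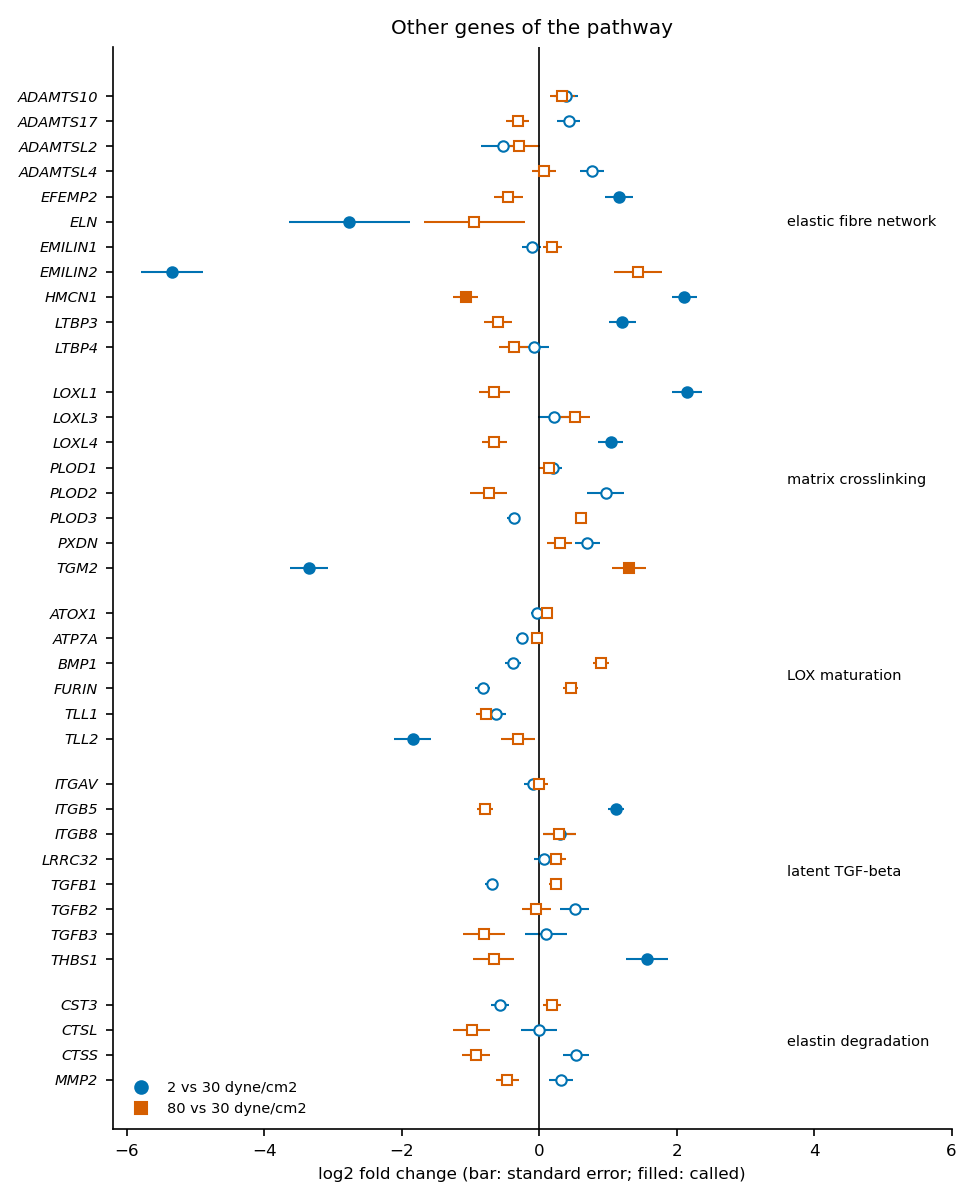
Log2 fold changes of the 37 tested genes of the 5 pathway lists at 2 vs. 30 dyne/cm2 (circles) and 80 vs. 30 dyne/cm2 (squares), with standard errors as bars and filled symbols for called genes. EMILIN2, TGM2 and ELN lie farthest to the left and HMCN1 and LOXL1 farthest to the right, all at 2 dyne/cm2.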

How the data were processed

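RNA of 12 EC cultures of 3 pigs was sequenced as single-end reads. The authors aligned with STAR to Sscrofa11.1, kept uniquely placed reads, summed them over the exons of protein coding transcripts with featureCounts (version 1.4.6 per the submitters' processing notes) and deposited raw counts of 21153 genes. Here symbols were taken by Ensembl identifier (14572 matched) and positions from RefSeq on the same assembly by symbol. Exon lengths were not used here, so levels are not compared between genes. The tests used edgeR 4.0.16 under R 4.3.3 (TMM, quasi-likelihood test, Benjamini-Hochberg adjustment over the 11568 genes that reached 1 CPM in 3 or more libraries), in 1 fit over 12 libraries with condition and donor (replicate block). CPM are TMM-normalized; log2 CPM used a prior count of 0.5. The standard error is the size of the log2 fold change divided by the square root of F. Thresholds (at least 2-fold, adjusted p under 0.05) are those of the methods, which compare cultures of one donor without naming a donor term. Replicate numbers follow the donor letters of the labels: after removal of condition means, 18 pairs of libraries with one number had correlations of 0.69 to 0.88, and 36 other pairs of -0.55 to -0.18. With 3 libraries per condition, removing the mean pushes the other pairs below 0 once libraries with one number correlate. The negative range is therefore no separate support for the pairing.

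The genes and lists were chosen with earlier results of these data known. All 10 members are named, with every called pathway gene, ELN and the remaining paralogs. Of the pathway list, COLGALT1 and CTSK were not matched. Alternatives were RLE normalization, DESeq2 1.42.0, no filter, filterByExpr, no donor term, only the 6 libraries compared, the other or both sets as control, the adjusted p alone, and each donor or library left out. Procedures were tested on simulated counts. Sequences of the members were not used here.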

Additional observations from a re-analysis of the deposited data

Results flagged for a closer look

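The response to 2 dyne/cm2 minus that to 80 dyne/cm2, tested within 1 model over 12 libraries (edgeR, donor term), passed an adjusted p of 0.05 for 6 members, which brings them here. On the log2 scale the difference was 0.86 for FBN1, 3.09 for FBLN1, -2.24 for LTBP1, 1.02 for LTBP2, 1.59 for LOX and -0.66 for LOXL2. LTBP1 and LOXL2 are those with the lower value at 2 dyne/cm2. The slides of the 2 comparisons also differ by the labels, and their part was not tested. The difference between the control sets (set 2 minus set 1) enters each value and had the same sign as the value.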

How the results depend on the processing

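Of 744 values of single members under the alternatives, 692 kept their side of the thresholds and changed sign, if at all, by less than the standard error. Members called at 2 dyne/cm2 (2) numbered 1 without the replicate block, with 12 or with 6 libraries, and 2 to 3 when a donor or library was left out. At 80 dyne/cm2 (1) there were 2 with DESeq2 or with the replicate block on 6 libraries, 0 without the block or with set 1 as control, and 0 to 1 when a donor or library was left out. Members whose responses differed (6) numbered 2 without the replicate block, and 3 to 6 when a donor or library was left out. Pathway genes called at 2 dyne/cm2 (11) numbered 6 without the block, 22 on the adjusted p alone and 8 to 12 with a donor or library left out; at 80 dyne/cm2 (2) they numbered 0 without the block, 1 with set 1 as control, 8 on the adjusted p alone and 0 to 3 with one left out, the 0 arising without donor 1 or 2, replicate 2 or 3 of set 2, or replicate 1 or 2 at 80 dyne/cm2. Over all genes, 1299 calls at 2 dyne/cm2 became 776 (12 libraries) or 635 (6 libraries) without the block, 4586 on the adjusted p alone and 826 without donor 3; 136 calls at 80 dyne/cm2 became 236 with DESeq2, 246 with the block on 6 libraries, 1 or 0 without it, 40 with set 1 as control, 380 on the adjusted p alone and 1 to 187 with a donor or library left out. Differing responses (4294 genes) became 1746 without the block and 1949 to 4352 with a donor or library left out, and differences between the sets (0) became 47 with DESeq2 and 1 with 6 libraries. Values that changed sign by more than the standard error, none of them called, were FBLN2 at 2 dyne/cm2 without donor 1 (0.21), FBLN5 at 80 dyne/cm2 without donor 1 (0.28) or its 80 dyne/cm2 culture (0.27), the difference of FBLN2 without the block (-0.21) or donor 3 (-0.43), and, between the sets, FBN1 without donor 1 (-0.05) or its set 2 culture (-0.04) and LTBP2 without the latter (-0.04). Over all fits with a donor or library left out, the ranges of these were -1.39 to 0.21 (FBLN2 at 2 dyne/cm2), -0.43 to 1.70 (difference of FBLN2), and, between the sets, -0.05 to 0.31 (FBN1) and -0.04 to 0.44 (LTBP2). FBLN5 stayed near 0 with either sign in other settings, at 80 dyne/cm2 and between the sets. The causes were not tested.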

Other observations

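Some genes of the elastic fibre list lay under the filter and were not tested. FBLN7, a fibulin of cell adhesion, averaged 0.341 ± 0.115 CPM under low shear stress and 0.115 ± 0.0834 CPM in set 1 (SD, n = 3). MFAP2, a microfibril glycoprotein related to MFAP5, had 0.321 ± 0.0245 CPM and 0.171 ± 0.0782 CPM. In both, the 3 cultures at 2 dyne/cm2 lay above the 3 controls, at 18 reads or fewer per library. Groups did not overlap for 37.3% of all genes tested either. FBN2, MFAP4 and EMILIN3, the other untested genes of this list, overlapped. MFAP2 had only 3 to 13 reads in any library, so counting error is large.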
